A study of Homo sapiens with 2 samples.

Results

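The subject is the set of nuclear genes for subunits of the respiratory chain and ATP synthase, compared by complex between 786-VHL and 786-O cells. Members were probe sets annotated to a single gene whose symbol starts with NDUFA, NDUFB, NDUFC, NDUFS, NDUFV, UQCR, COX4, COX5, COX6, COX7, COX8 or ATP5, or is SDHA, SDHB, SDHC, SDHD or CYC1. COXFA4 was included under its earlier symbol NDUFA4. This gave 79 genes on 153 probe sets, of 19775 genes named by single-gene probe sets in all, with 33 genes in complex I, 3 in complex II, 7 in complex III, 18 in complex IV and 18 in complex V. The rule left out NDUFA4L2 (now COXFA4L2), the 8 NDUFAF assembly factors and 2 pseudogenes, and 3 noncoding RNAs and COXFA4L3 were also left out because they carry only a related symbol. A further 10 probe sets name a subunit gene together with another gene and were not used, and SDHB is not analysed here.

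786-O is a human renal cell carcinoma line with a mutated VHL allele, and 786-VHL is a line derived from it that holds a functional allele of VHL. Total RNA of each line was measured on 1 Affymetrix array, so no difference below has a replicate check, standard error or p-value, and this sets the limit of precision throughout. The series title refers to a study of the virus EMCV, and the labels list no infection of either line. The labels do not say how the allele was introduced, whether 786-VHL is 1 clone, or whether 786-O carried an empty vector, so the passage history of the derived line and the VHL allele cannot be told apart. In bulk RNA, fewer cells of a type and less RNA per cell cannot be told apart either.

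The respiratory chain sits in the inner mitochondrial membrane. Complex I oxidises NADH and complex II oxidises succinate, both passing electrons through ubiquinone to complex III, which hands them by cytochrome c to complex IV, where oxygen is reduced. Complexes I, III and IV pump protons, and complex V, the ATP synthase, uses the gradient to make ATP. VHL recognises hydroxylated HIF alpha proteins and has them ubiquitinated and degraded, and HIF activity is known to lower mitochondrial respiration in VHL-defective renal cells.

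Values are probe set intensities in arbitrary units. A gene was represented by its brightest single-gene probe set and counted as measured where the higher of the arrays exceeded 22.3, the pooled median of all values. Differences are log2(786-VHL + 16) minus log2(786-O + 16), with positive values meaning higher in 786-VHL, and folds are on that scale. Over all 54613 probe sets the median intensity was 22.58 in 786-VHL and 21.97 in 786-O. Of 7 kidney tubule and epithelial markers 5 were measured, with KRT18 at 4960.5 in 786-VHL and 5315 in 786-O and PAX8 at 1068 and 1521, while LRP2 and CUBN were below the floor. None of 3 leukocyte markers was measured, with intensities summing to 45.8 in 786-VHL and 44.7 in 786-O. Of 3 endothelial markers 2 were measured and of 4 fibroblast markers 2, with sums of 68.04 and 150.7 in 786-VHL and of 50.9 and 130.3 in 786-O. Single markers differed in direction, with LUM at 37.1 in 786-VHL and 5.64 in 786-O, VWF at 28.9 and 19.9, and COL1A1 at 79.9 and 94.8. Their part in the results was not tested. VHL itself had an intensity of 15.96 in 786-VHL, below the floor, and of 28.85 in 786-O, a difference of -0.49, and its second probe set was below the floor on both arrays. VHL was thus lower, near the floor, on the array labelled as holding functional VHL, which goes against that label, and whether these probes would detect the functional allele is not stated. All directions below rest on the array labels, and 786-VHL and 786-O stand for the libraries so labelled.

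To show what the regulatory start of these genes looks like, 5 promoters are printed, running from 250 bases before to 50 after the annotated start in RefSeq, build GRCh38.p14. They belong to ATP5IF1 and ATP5MC1, the members with the largest differences in favour of 786-VHL, to ATP5MJ and NDUFB8, which come next in complex V and lead complex I, and to NDUFV3, the lowest of complex I. Capitals mark matches on either strand to GCGCA followed by any base and GCGC, the core bound by NRF1, to CCGGAAG, the core bound by ETS factors such as GABPA, to AAGATGGC, the core bound by YY1, and to ACGTG, the core of HIF response elements. The windows are chr1:28235874-28236173 on the plus strand for ATP5IF1, chr17:48892537-48892836 on the plus strand for ATP5MC1, chr14:103921480-103921779 on the minus strand for ATP5MJ, chr10:100529822-100530121 on the minus strand for NDUFB8 and chr21:42893059-42893358 on the plus strand for NDUFV3.
ATP5IF1: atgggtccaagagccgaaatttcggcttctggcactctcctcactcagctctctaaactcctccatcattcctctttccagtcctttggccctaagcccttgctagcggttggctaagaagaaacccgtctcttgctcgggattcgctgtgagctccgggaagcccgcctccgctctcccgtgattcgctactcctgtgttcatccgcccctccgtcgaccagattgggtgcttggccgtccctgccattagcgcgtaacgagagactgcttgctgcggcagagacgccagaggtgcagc
ATP5MC1: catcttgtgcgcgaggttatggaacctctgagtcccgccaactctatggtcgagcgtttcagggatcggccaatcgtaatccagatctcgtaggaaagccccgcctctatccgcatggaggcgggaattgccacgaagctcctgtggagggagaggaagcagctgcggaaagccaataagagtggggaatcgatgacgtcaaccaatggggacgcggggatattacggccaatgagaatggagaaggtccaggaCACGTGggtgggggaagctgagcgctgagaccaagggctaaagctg
ATP5MJ: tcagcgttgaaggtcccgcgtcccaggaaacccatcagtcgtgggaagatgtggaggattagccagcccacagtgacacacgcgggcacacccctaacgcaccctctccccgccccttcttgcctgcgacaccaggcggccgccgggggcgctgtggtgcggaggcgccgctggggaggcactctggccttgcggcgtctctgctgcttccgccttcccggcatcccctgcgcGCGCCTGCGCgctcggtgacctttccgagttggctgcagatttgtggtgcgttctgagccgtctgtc
NDUFB8: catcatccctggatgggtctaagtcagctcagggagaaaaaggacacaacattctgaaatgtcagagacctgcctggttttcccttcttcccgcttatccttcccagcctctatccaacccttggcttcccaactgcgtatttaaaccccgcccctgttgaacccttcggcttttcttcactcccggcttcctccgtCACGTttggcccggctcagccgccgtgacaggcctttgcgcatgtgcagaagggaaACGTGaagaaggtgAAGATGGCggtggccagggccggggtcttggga
NDUFV3: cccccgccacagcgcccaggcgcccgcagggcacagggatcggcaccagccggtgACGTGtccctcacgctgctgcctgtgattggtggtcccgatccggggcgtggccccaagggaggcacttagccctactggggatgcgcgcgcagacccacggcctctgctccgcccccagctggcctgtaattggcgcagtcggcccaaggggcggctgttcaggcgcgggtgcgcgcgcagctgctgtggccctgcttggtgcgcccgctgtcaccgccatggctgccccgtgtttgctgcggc

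NDUFB8 had 2 annotated windows, and the one with more kinds of core was printed, or the first if they tied. The other printed genes had 1 window each. Among these windows, that of ATP5MJ held the NRF1 core, starting 17 bases before the annotated start, and that of NDUFB8 held the YY1 core, within its first 50 transcribed bases. The windows of ATP5MC1, NDUFB8 and NDUFV3 held the ACGTG core, and that of ATP5IF1 held none of the 4 cores. RefSeq promoter windows were found for 67 of the 79 members. The NRF1 core was in a window of 16 of them (23.9%), against 6.98% of all 27305 genes with a window and 12.5% of the 10674 such genes that were measured. The ETS core was in 19 (28.4%), against 12.2% of all genes and 20.9% of measured ones, and the YY1 core in 11 (16.4%), against 3.52% and 6.10%. The ACGTG core was in 17 members (25.4%), against 24.9% and 31.7%. Counted per window of 300 bases, the cores were in 5.78%, 10.3%, 2.89% and 21.4% of 35116 windows, in the order NRF1, ETS, YY1 and ACGTG. The cores do not contain each other, and a match is only a match of letters.

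Differences by core were small. Measured members with the NRF1 core had a median difference of 0.17 (15 genes), against 0.13 for those without (50 genes), and for the YY1 core the medians were 0.20 (11 genes) and 0.13 (54 genes). For the ETS core they were 0.18 (19 genes) and 0.12 (46 genes). Members with the ACGTG core had a median of 0.08 (17 genes), below the 0.18 of those without (48 genes). Over all measured genes with a window the medians with and without a core were 0.04 and 0.05 for NRF1, 0.06 and 0.05 for ETS, 0.08 and 0.05 for YY1, and 0.05 and 0.05 for ACGTG.

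Subunit genes were more often higher in 786-VHL than lower, by small amounts. Of the 76 measured members 58 were higher (76.3%), where 56.8% of all measured genes were, and 18 were lower, where 41.8% of all were. Their median difference was 0.16, with quartiles of 0.01 and 0.26, against a median of 0.05 for all 13291 measured genes. Only 2 members, ATP5IF1 and ATP5MC1, were at least 1.5-fold higher, as were 6.25% of all measured genes, and none was at least 1.5-fold lower, as were 6.55% of all. ATP5IF1 alone was at least 2-fold higher, where 1.54% of all genes were, and none was 2-fold lower, where 2.18% were. The members are bright genes, 69 of them with a mean intensity of at least 500, and those 69 had a median of 0.18 with 54 higher, against a median of 0.07 and 57.9% higher (41.8% lower) among all 3058 genes that bright. Of those genes 7.06% were at least 1.5-fold higher and 6.38% at least 1.5-fold lower, and 1.5% and 2.03% passed 2-fold in these directions. With the intensity-dependent trend of the arrays removed, 46 of 76 members were higher (60.5%), where 49.97% of all genes were, and the median was 0.08.

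By complex, the medians ran from 0.11 in complex I through 0.16 in complex II and 0.21 in complex IV to 0.24 in complexes III and V. In complex V 16 of 18 measured genes were higher and in complex IV 13 of 15, whereas it was 23 of 33 in complex I, 4 of 7 in complex III and 2 of 3 in complex II. Among all measured genes 56.8% were higher, and complex III, at 57.1%, lay close to that share. The quartiles of complex I were -0.04 and 0.24 and those of complex V 0.08 and 0.40, so the complexes overlapped widely. Members are not replicates, and the differences between complexes were not tested.

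**Figure D1:**
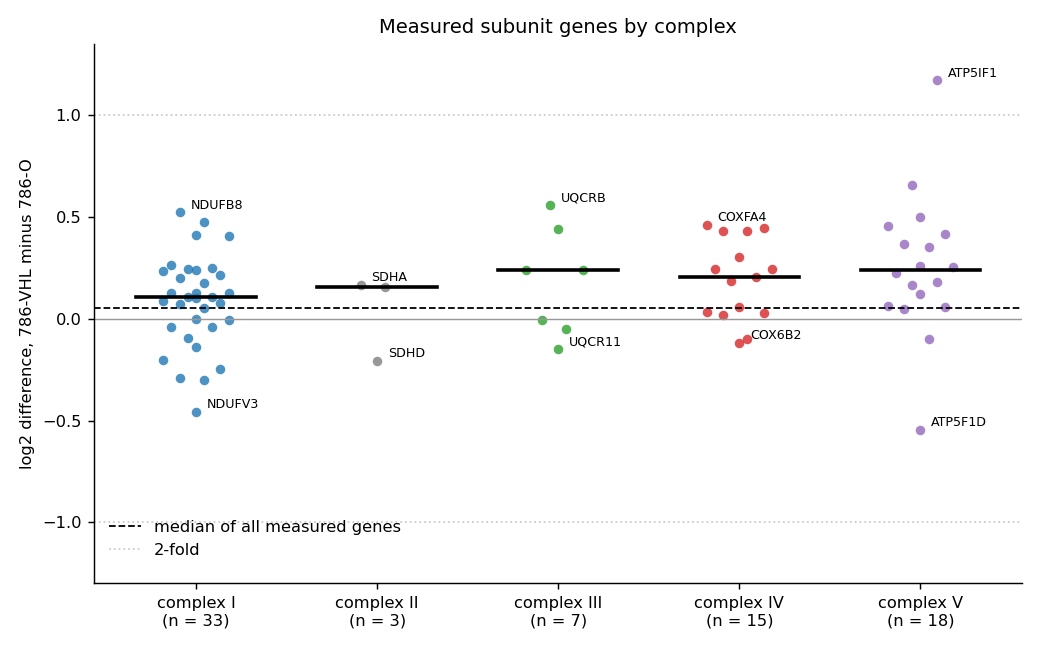
Log2 difference, 786-VHL minus 786-O, of each measured subunit gene (points) by complex, with the complex median as a black bar, the median of all 13291 measured genes dashed and 2-fold dotted. Complexes III, IV and V have medians of 0.21 to 0.24 and complex I of 0.11, and ATP5IF1 is the only gene past 2-fold.

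Complex I, the NADH dehydrogenase, had its highest differences in accessory subunits, which surround the catalytic core. NDUFB8, of the membrane arm, had an intensity of 2224 in 786-VHL and 1543 in 786-O, a difference of 0.52, and its other bright probe set differed by 0.45. NDUFA8, an accessory subunit facing the intermembrane space, had 1566 in 786-VHL and 1120.2 in 786-O, a difference of 0.48. NDUFB10, also of the membrane arm, had 2512 in 786-VHL and 1887 in 786-O, a difference of 0.41, and 0.25 on a second probe set. All of these were brighter in 786-VHL on every probe set with a mean of at least 500.

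NDUFV3, NDUFV2 and NDUFS7, the lowest complex I genes, belong to the matrix arm, where NADH is oxidised. Some other genes of that arm were higher in 786-VHL, such as NDUFV1 at 0.24 and NDUFA12 at 0.26. Some membrane arm genes were lower, such as NDUFB7 at -0.14. The arms were not compared as sets. NDUFV3, an accessory subunit of the NADH-binding tip, had 338 in 786-VHL and 471 in 786-O, a difference of -0.46, and -0.41 on its second probe set. NDUFV2, an iron-sulfur core subunit of that tip, had 1421 in 786-VHL and 1752 in 786-O, a difference of -0.30 on its single probe set. NDUFS7, an iron-sulfur core subunit next to the ubiquinone site, had 499 in 786-VHL and 615 in 786-O, a difference of -0.29, and -0.25 on a second probe set. The 5 measured core subunits had a median of -0.20, with NDUFS3 at -0.20 beside NDUFV2 and NDUFS7, and with NDUFS1 at 0.24 and NDUFV1 at 0.24. The 28 accessory subunits had a median of 0.11, and 21 of them were higher in 786-VHL (75%, against 56.8% of all measured genes).

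NDUFS1, the largest core subunit, gave opposite signs on its probe sets. Its brightest read 908 in 786-VHL and 765 in 786-O, whereas the other 3 above the floor differed by -0.46, -0.55 and -1.44. The last of these read 18.5 in 786-VHL, below the floor, and 77.96 in 786-O. The direction of NDUFS1 therefore depends on the probe set chosen.

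Complex II, succinate dehydrogenase, is the only complex encoded wholly in the nucleus, and also a step of the TCA cycle. SDHA, the flavoprotein, had 1600.3 in 786-VHL and 1424 in 786-O, a difference of 0.17. SDHC, a membrane anchor, had 1151 in 786-VHL and 1030.1 in 786-O, a difference of 0.16, and its 4 bright probe sets lay between 0.16 and 0.19, while 2 dim ones were at -0.10 and -0.42. SDHD, the other membrane anchor, had 748 in 786-VHL and 865 in 786-O, a difference of -0.21. On the representing probe sets the genes of this complex differed by at most 1.15-fold.

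Complex III, the cytochrome bc1 complex, divided between genes that were higher and genes close to 0. UQCRB, a ubiquinone-binding subunit, had 6133 in 786-VHL and 4163 in 786-O, a difference of 0.56, with 0.48 and 0.22 on its other probe sets above the floor. UQCRC1, a core protein, had 2248 in 786-VHL and 1649 in 786-O, a difference of 0.44. CYC1, the cytochrome c1 haem protein, had 3325 in 786-VHL and 2811 in 786-O, a difference of 0.24, close to the 0.24 of UQCRC2, the other core protein.

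The small subunits UQCRQ, UQCR10 and UQCR11 did not share that direction. UQCRQ had 3793 in 786-VHL and 3807 in 786-O, a difference of -0.01. UQCR10 had 3283 in 786-VHL and 3396 in 786-O, a difference of -0.05, and its dim second probe set differed by -0.30. UQCR11 had 1588 in 786-VHL and 1764 in 786-O, a difference of -0.15, with -0.47 on the dim second one.

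Complex IV, cytochrome c oxidase, has its catalytic centre in mitochondrially encoded proteins, and its nuclear genes are small subunits that stabilise and tune it. COXFA4, long known as NDUFA4 and counted with complex I before it was assigned to complex IV, had 3205 in 786-VHL and 2325 in 786-O, a difference of 0.46. COX6C had 6672 in 786-VHL and 4897 in 786-O, a difference of 0.44. COX7B had 4652 in 786-VHL and 3442 in 786-O, a difference of 0.43, but its dim second probe set, at 16.8 in 786-VHL and 39.1 in 786-O, differed by -0.75. COX5A, a subunit on the matrix side, differed by 0.02, at 2291 in 786-VHL and 2262 in 786-O.

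Several complex IV subunits have tissue-specific or inducible paralogs. COX4I1, the common form of subunit 4, had 6194 in 786-VHL and 4595 in 786-O, and its 3 probe sets above the floor agreed, at 0.40, 0.43 and 0.48. COX4I2, the lung form that is known to be induced by hypoxia, had 48.5 in 786-VHL and 47.2 in 786-O, a difference of 0.03. The common form was thus higher in 786-VHL on each of these probe sets, and the hypoxia-linked form differed by less than the median of all measured genes.

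In the other families the tissue-specific forms lay near or below the floor. COX6A1, the liver-type form, had 4647 in 786-VHL and 3764 in 786-O, while COX6A2, the muscle form, had 22.7 in 786-VHL, just above the floor, and 21.1 in 786-O, just below it. COX6B1 had 2644 in 786-VHL and 2229.99 in 786-O, and COX6B2, known from testis, had 27.6 in 786-VHL and 31.3 in 786-O. COX8A had 4043 in 786-VHL and 3557 in 786-O. COX7A2 had 3597 in 786-VHL and 3520.2 in 786-O, a difference of 0.03 that was -0.03 after quantile normalization and -0.06 with the intensity trend removed. Their paralogs COX7A1, COX7B2 and COX8C, with 16.4, 11.6 and 6.21 in 786-VHL and 11.98, 8.50 and 5.58 in 786-O, were the 3 members below the floor on both arrays. COX7A2L, which helps to join complexes III and IV into supercomplexes, had 1388 in 786-VHL and 1488 in 786-O, a difference of -0.10.

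**Figure D2:**
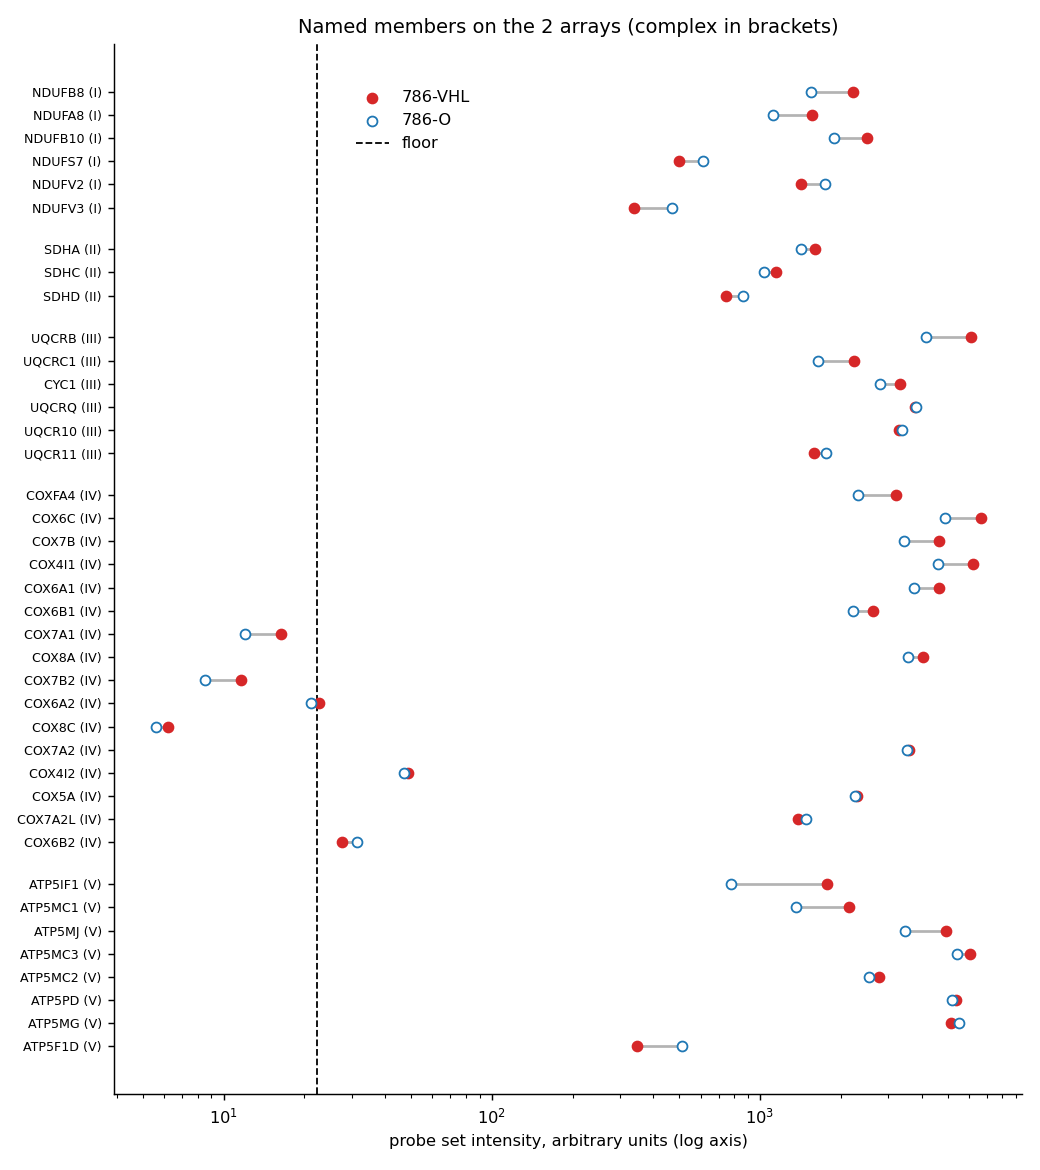
Intensity of the representing probe set of each named member in 786-VHL (filled) and 786-O (open) on a log axis, grouped by complex and sorted by difference, with the floor of 22.3 dashed. Most pairs of points lie close together on the bright side of the axis, ATP5IF1 has the widest gap, and the tissue-specific complex IV paralogs lie near or below the floor.

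Complex V, the ATP synthase, held the member with the largest difference. ATP5IF1 encodes the inhibitor that binds the F1 part and blocks the enzyme from running backwards and consuming ATP. It had 1776 in 786-VHL and 779.5 in 786-O, which is 2.25-fold higher. A second probe set with 421 in 786-VHL and 219 in 786-O differed by 0.90, but the third, with 76.5 in 786-VHL and 82.5 in 786-O, differed by -0.09. The first pair carry the suffix _s_at, given to probe sets that match several transcripts, and without such probe sets ATP5IF1 would not count as higher.

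The c subunit, which forms the rotating ring of the membrane part, is made from 3 genes whose mature protein is the same and whose import sequences differ. ATP5MC1 had 2150.01 in 786-VHL and 1360 in 786-O, a difference of 0.65 or 1.57-fold on its single probe set. ATP5MC2 had 2778 in 786-VHL and 2548 in 786-O, a difference of 0.12. ATP5MC3 had 6079 in 786-VHL and 5417 in 786-O, a difference of 0.17, with 0.11 on its other bright probe set and -0.18 on a dim one. Of the 3 genes only ATP5MC1 passed 1.5-fold, and with the intensity trend removed it did not, at 0.57.

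The peripheral stalk genes, whose proteins hold the F1 head still, had a median of 0.31, with 4 of 4 above 0, where 56.8% of all measured genes were. ATP5PF was at 0.46, ATP5PO at 0.26 and ATP5PB at 0.37, the last with a dim second probe set at -0.27. ATP5PD, with 5355 in 786-VHL and 5181 in 786-O, was at 0.05, and at -0.03 after quantile normalization and -0.04 with the intensity trend removed. Of the 5 genes of the F1 part, which carries the catalytic sites, 4 were higher. These were ATP5F1A at 0.25, ATP5F1B at 0.22, ATP5F1C at 0.35 and ATP5F1E at 0.06. The exception was ATP5F1D, which encodes the delta subunit of the central stalk and had 347 in 786-VHL and 514 in 786-O, a difference of -0.55, with -0.24 on its second probe set. It was the lowest of all members.

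Among small membrane subunits, ATP5MJ had 4925 in 786-VHL and 3477 in 786-O, a difference of 0.50, and 0.90 on a second probe set at 1416 and 750.2. ATP5MG, involved in pairing ATP synthases, had 5169 in 786-VHL and 5532 in 786-O, a difference of -0.10, and the 4 probe sets were lower in 786-VHL throughout. One of them, without a suffix, had 208 in 786-VHL and 504 in 786-O, a difference of -1.22, while the other bright ones were both at -0.19. ATP5ME at 0.18, ATP5MK at 0.42 and ATP5MF at 0.06 completed that group, the last on a dim probe set near 37.

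Agreement between probe sets of a gene depended on their brightness. Of 32 members with several probe sets above the floor, 20 had the same sign on each, the median spread from lowest to highest was 0.26, and 7 spread over more than 0.58, which is 1.5-fold. Among the 15 members with several probe sets of a mean of at least 500, 14 had the same sign on each and the median spread was 0.07, with the largest, of 0.40, in ATP5MJ. COX5B was the exception in sign, with bright probe sets from -0.02 to 0.21. The SD between probe sets of a gene was 0.33 for members and 0.33 for all measured genes, which is larger than every complex median and covers differences between probes, not between cultures.

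**Figure D3:**
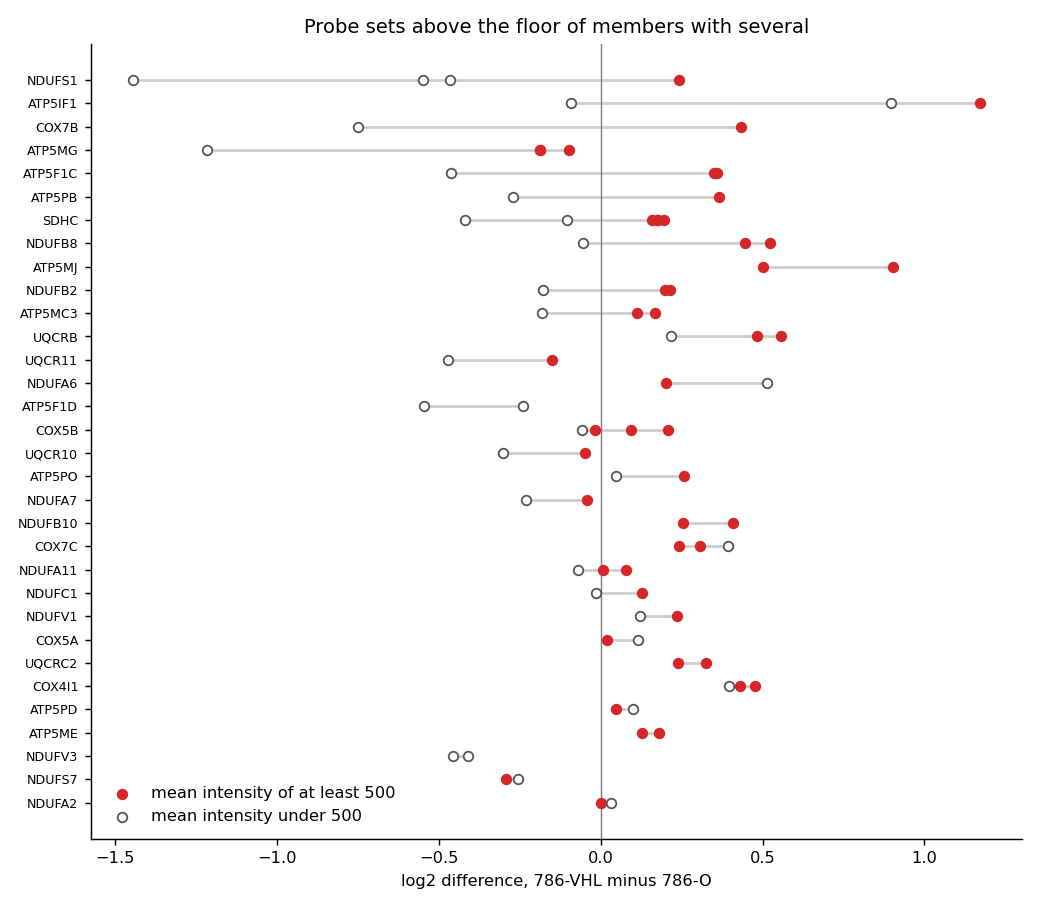
Log2 difference, 786-VHL minus 786-O, of every probe set above the floor in the 32 members that have several, with bright probe sets (mean of at least 500) filled and dimmer ones open. In NDUFS1, ATP5IF1, COX7B and ATP5MG dimmer probe sets lie far from the bright ones, and the bright ones of ATP5MJ, at 0.50 and 0.90, are the farthest apart among bright probe sets.

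The direction of a member also went with its chromosome, a grouping chosen after the values were seen. Of the 18 lower members, 11 lay on chromosomes 11 and 19, which held 15 of the 76 measured members. On chromosome 19, 8 of 10 members were lower, with a median of -0.13, and 55.7% of all 974 measured genes there were lower, with a median of -0.05. Among the genes there with a mean of at least 500, as most members have, 106 of 142 were lower, with a median of -0.15. On chromosome 11, 3 of 5 were lower, with a median of -0.10, and 59% of all 790 genes there were, with a median of -0.09. Among the genes there with a mean of at least 500, 134 of 175 were lower, with a median of -0.25. On the remaining chromosomes 54 of 61 members were higher (88.5%), with a median of 0.20, and 59.2% of all genes there were higher, with a median of 0.07.

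The lower chromosome 19 members came from 4 complexes: NDUFA3, NDUFA7, NDUFA13, NDUFB7 and NDUFS7 of complex I, UQCR11 of complex III, COX6B2 of complex IV and ATP5F1D of complex V. The others there were COX6B1 at 0.24 and NDUFA11 at 0.08. The lower chromosome 11 members were NDUFS3, SDHD and ATP5MG, and the higher ones COX8A at 0.18 and NDUFV1 at 0.24. Without both chromosomes, all 16 complex V members, 11 of 12 of complex IV, 21 of 25 of complex I, 4 of 6 of complex III and 2 of 2 of complex II were higher, with medians of 0.26, 0.22, 0.12, 0.24 and 0.16. Among all measured genes of the remaining chromosomes 59.2% were higher, with a median of 0.07.

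The same held on a finer scale. Each member was set beside the median difference of the 30 nearest measured genes on its chromosome, itself left out. Across the 76 members, which share both arrays and in part their neighbours, member and neighbour values correlated with r = 0.55 (Pearson) and rho = 0.61 (Spearman), given as a description. Of the 18 lower members 13 had neighbours with a median below 0, and of the 58 higher ones 42 had neighbours above 0. These correlations and counts were not made over all measured genes, so whether they are particular to the members was not tested. SDHD, at -0.21, had neighbours at -0.28, NDUFA13, at -0.24, had neighbours at -0.25, and UQCRC1, at 0.44, had neighbours at 0.40. ATP5IF1, with neighbours at 0.20, ATP5MC1, with neighbours at 0.01, and ATP5F1D, with neighbours at -0.07, stood farther from theirs. In all, 57 of 76 members lay above their neighbours' median, as did 50.2% of 13266 measured genes, and subtracting it left a member median of 0.09.

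**Figure D4:**
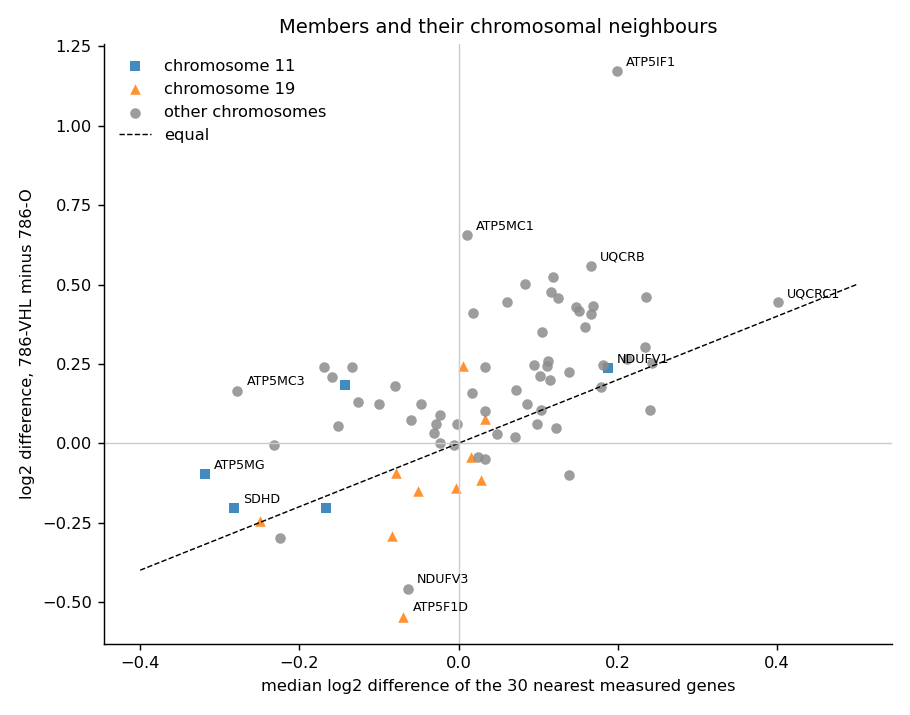
Log2 difference of each measured member, 786-VHL minus 786-O, against the median difference of its 30 nearest measured genes, with members on chromosome 11 as squares, on chromosome 19 as triangles and on others as circles, and equality dashed. Members with higher values have neighbours with higher values (Spearman rho 0.61 over 76 members), and 57 of them lie above the line.

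Assembly factors, which build the complexes, were close to all measured genes. The 43 measured had a median of 0.09, with 26 higher (60.5%, against 56.8% of all genes). Of them 2 were at least 1.5-fold higher and 3 at least 1.5-fold lower, where 6.25% and 6.55% of all genes were. NDUFAF3, an assembly factor of complex I, had 1263 in 786-VHL and 673 in 786-O, a difference of 0.89 on its single probe set. COX15, which makes the haem a of complex IV, had 396 in 786-VHL and 227 in 786-O, a difference of 0.76, and its 4 probe sets lay between 0.37 and 0.79. LYRM7, which matures the Rieske protein of complex III, had 201 in 786-VHL and 353 in 786-O, a difference of -0.77, and its 3 probe sets above the floor lay between -0.91 and -0.54.

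Mitochondrial ribosome genes, whose products translate the mitochondrially encoded subunits, were higher in 59 of 75 (78.7%, against 56.8% of all measured genes), with a median of 0.15. MRPS21 had 1274 in 786-VHL and 708 in 786-O, a difference of 0.83. In this list 3 genes passed 1.5-fold upward and none downward, where 6.25% and 6.55% of all measured genes did. The list of TCA cycle genes, which supply NADH and succinate, also held the pyruvate dehydrogenase complex genes PDHA1, PDHB, DLAT and PDHX. Of the 17 genes listed 15 were found here. Of these 15 genes 12 were higher (80%, against the same 56.8%), with a median of 0.16. DLST, of the oxoglutarate dehydrogenase complex, was the exception past 1.5-fold, with 434 in 786-VHL and 674 in 786-O, a difference of -0.62. The 13 mitochondrially encoded subunits had no single-gene probe set here and were not analysed.

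Regulators of mitochondrial gene expression went both ways, 11 of 16 being higher (68.8%, against 56.8% of all measured genes), with a median of 0.12. TFAM, which packages and transcribes mitochondrial DNA, had 1313 in 786-VHL and 862 in 786-O, a difference of 0.60, with 4 probe sets from 0.48 to 0.72. GABPA, an ETS factor known to bind promoters of subunit genes, had 151 in 786-VHL and 62.8 in 786-O, a difference of 1.08, but 0.27 on its second probe set. NRF1, named after its values were seen, had 80.3 in 786-VHL and 105.5 in 786-O, a difference of -0.34, and the coactivator gene PPARGC1A was below the floor on both arrays.

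Of 12 HIF-linked mitochondrial genes 8 were higher in 786-VHL (66.7%, against 56.8% of all measured genes) and 4 lower, with a median of 0.16. The list was not split by the direction in which HIF acts on each gene. The 4 lower genes were BNIP3L at -0.20, BNIP3 at -0.15, LONP1 at -0.10 and FUNDC1 at -0.04. ISCU, among the higher ones, was at 0.48. FAM162A, a hypoxia-responsive mitochondrial protein gene, was the only 1 at least 1.5-fold higher, and none was at least 1.5-fold lower. Among all measured genes 6.25% and 6.55% passed 1.5-fold in these directions. FAM162A had 1937 in 786-VHL and 1264 in 786-O, a difference of 0.61. PDK1, the kinase that keeps pyruvate out of the TCA cycle, had 139 in 786-VHL and 112 in 786-O, a difference of 0.28. COXFA4L2, the HIF-induced paralog of COXFA4 better known as NDUFA4L2, had 38.7 in 786-VHL and 31.7 in 786-O, a difference of 0.20. EPAS1, which encodes HIF-2 alpha, had 799 in 786-VHL and 367 in 786-O, a difference of 1.09, and 0.42 on its second probe set above the floor. The representing probe set of HIF1A did not reach the floor on either array. Probe sets that name several genes were not used, so whether HIF1A is expressed cannot be told from this. Cytosolic ribosome genes had a median of -0.01 with 22 of 51 higher (43.1%, against 56.8% of all measured genes).

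**Figure D5:**
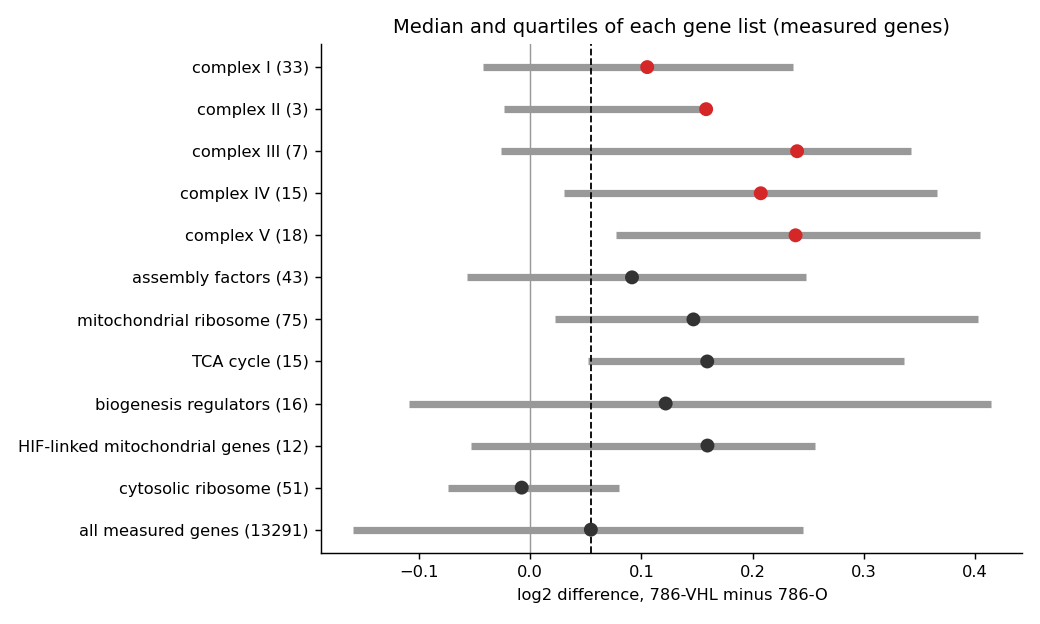
Median (point) and quartiles (bar) of the log2 difference, 786-VHL minus 786-O, of the 5 complexes (red), of other mitochondrial gene lists, of cytosolic ribosome genes and of all measured genes, whose median is dashed, with the number of measured genes in brackets. Complexes III to V have the highest medians. Mitochondrial ribosome genes lie at 0.15, the list of TCA cycle and pyruvate dehydrogenase genes at 0.16, and cytosolic ribosome genes at -0.01.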

How the data were processed

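Total RNA of 786-VHL and of 786-O was extracted with Trizol and hybridised to 1 array each, per the labels' protocols. The authors deposited a linear intensity for each probe set of each array. The submitters' processing notes name R 2.10 alone. How background was corrected and arrays were normalized is not given in the sources used here, so their effect on the differences is unknown. Of 54613 probe sets 41091 name 1 gene, 1801 several and 11721 none in the platform annotation, and symbols were updated by Entrez number for 41037 of them through GRCh38.p14 RefSeq.

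Intensities were taken as log2(value + 16), and the probe set with the highest mean log2 value represented a gene. With 1 array per line no test was made, and genes are described by counts past 1.5-fold and 2-fold. The members and lists were chosen with earlier results of these data known. Named members are all of complex II, the 3 highest and 3 lowest of each other complex, paralogs, COXFA4 and ATP5IF1, and up to 3 genes of each other list. Others were named after their values were seen. The alternatives are given in the closing section. The code was tested on simulated data. The accepted error was about as large as the complex medians, so that test does not check their precision. Python 3.11.15, numpy 2.4.6, pandas 2.3.3, statsmodels 0.14.6 and matplotlib 3.10.9 were used.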

Additional observations from a re-analysis of the deposited data

How the results depend on the processing

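No paired analysis was possible because 786-VHL and 786-O have a single array each, and no replicate could be left out for the same reason. There were 11 alternatives of the first plan and 3 chosen after seeing the data, which were leaving out chromosomes 11 and 19, subtracting the neighbours' median and keeping members with a mean of at least 500. The medians of complexes I, III, IV and V and of all members stayed above 0 under all 14, at their lowest 0.02, 0.04, 0.07, 0.08 and 0.08. For all measured genes the median was itself above 0 in the main setting, at 0.054, and was -0.00015 with the intensity trend removed. Of 313 alternative values of named members 296 kept their sign. Some alternatives changed only the added constant or the floor. These cannot change the sign of a given probe set, so part of that agreement was fixed in advance. The medians above share this limit in part. Quantile normalization put the median of all members at 0.085, against 0.049 for all measured genes. With the intensity trend removed it was 0.080, with complex I at 0.024, complex IV at 0.11 and complex V at 0.15, and with 1 gene (complex V) at least 1.5-fold higher and 1 (complex V) at least 1.5-fold lower, ATP5F1D at -0.59, while ATP5MC1, at 0.57, was no longer past 1.5-fold. Over the median of probe sets all members were at 0.11, against 0.049 for all measured genes. Complex IV was at 0.067 and complex V at 0.15 there, and 0 member genes were 2-fold higher. Without suffixed probe sets, where 56 members were left, the median was 0.086 with 36 higher (64.3%), against 0.041 and 54.8% for all measured genes. In that setting complex I had 14 of 23 higher, complex II was at -0.15 with 0 of 2 higher, and complex V was at 0.080 with 8 of 12 higher. There 1 gene was at least 1.5-fold higher (ATP5MJ, at 0.90), 0 were 2-fold higher, 1 was at least 2-fold lower (ATP5MG, at -1.22) and ATP5IF1 was at -0.091. Minus the neighbours' median, all members were at 0.091, complex III at 0.043, and 0 genes were 2-fold higher. The causes of these shifts were not tested, beyond the fewer genes and probe sets used. Dim probe sets limit COX4I2, COX6A2, COX6B2 and ATP5MF, which lie near the floor.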
